A study of Mus musculus with 13 samples.

Results

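Hair shaft and inner root sheath genes were examined in whole skin of 4-day-old (P4) mice. A list of 32 genes was drawn up by name and role, with earlier results of these data known, and 31 of them were found among the 49315 genes of the count tables and are described here. They comprise 7 keratins of the inner root sheath, 9 type I and 5 type II hair keratins, 6 genes for trichohyalin, a trichohyalin-like protein, cross-linking enzymes and a calcium-binding protein, and 4 transcription factors of hair lineages. The comparison was between 3 WT mice and 3 *K14Cre+Kctd1fl/flKctd15fl/fl* mice, called DKO, with 1 library per mouse (WT1 to WT3 and DKO1 to DKO3). Both groups were P4 littermates, and the material was full-thickness back skin. In the DKO mice both copies of *Kctd1* and of *Kctd15* are floxed, and Cre is made under the keratin 14 promoter, so recombination is directed to keratin 14-expressing epithelium while dermis, muscle, fat and blood in the same sample keep the genes. A further 7 libraries came from epidermis of 3-week-old mice, 3 *K14Cre+Kctd15fl/fl* and 4 DKO. Their files hold a count of 0 for every gene, and the epidermis is not analysed here.

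A growing hair is built in the bulb of the follicle, where matrix cells leave the cell cycle and differentiate in concentric layers. The inner root sheath surrounds the shaft and molds it, and its cells fill with their own keratins and with trichohyalin. Shaft cells make hair keratins, a type I with a type II chain, and embed the filaments in cysteine-rich keratin-associated proteins. Peptidylarginine deiminases convert arginines of trichohyalin to citrulline, and transglutaminases join the proteins to one another. GATA3 is known for its role in the inner root sheath lineage, and FOXN1, MSX2 and DLX3 for theirs in shaft differentiation.

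Depth was similar across most libraries. WT1, WT2 and WT3 held 14836798, 17643043 and 17470709 counts, and DKO1, DKO2 and DKO3 held 11263863, 14950538 and 15050299, so DKO1 was the shallowest. Levels are given as CPM, counts scaled to a common library total after adjustment by the trimmed mean of M values (TMM), and a floor of 3 counts corresponds to 0.17 to 0.266 CPM. All 31 genes lay far above it, with 39 to 100376 counts per library. Keratinocyte and dermal markers were abundant in every library, as for whole skin, with *Krt5* between 1063 and 1820 CPM and *Col1a1* between 6574 and 13960 CPM.

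The targeted genes were read first. *Kctd15* was measured at 48.5, 48.5 and 50.3 CPM in the WT mice and at 74.5, 99.4 and 87.3 CPM in DKO1, DKO2 and DKO3. *Kctd1* was measured at 29.2, 27.0 and 29.1 CPM in WT and at 33.3, 64.9 and 48.4 CPM in DKO. Both were thus higher in every library labelled DKO, with log2 fold changes of 0.83 and 0.78 (edgeR adjusted p = 0.107 and 0.342). The adjusted p-values were 0.00059 and 0.0747 by DESeq2, and 0.0029 and 0.0306 by edgeR without a filter on low counts. Without DKO1 the log2 fold changes were 0.91 and 0.98, with edgeR adjusted p = 0.0173 and 0.0335. Counts over a whole gene do not show whether a floxed exon was lost, so they do not check the genotype.

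None of the 31 genes passed the test between DKO and WT by edgeR's quasi-likelihood test (adjusted p under 0.05 over all 20168 genes tested and a log2 fold change beyond 1), and none did by DESeq2. In the same comparison 14 of the 20168 genes were called, or 0.0694%, by edgeR and 0.827% of those tested by DESeq2. At an unadjusted p under 0.05, 3 of the 31 were lower in DKO and 0 were higher, against 2.54% of all tested genes in the lower and 4.96% in the higher direction. All 3 were inner root sheath keratins, *Krt71*, *Krt73* and *Krt28*. Of the 31 genes, 30 had a log2 fold change below 0, a sign that 47.1% of all tested genes shared, and *Dlx3* was the exception. Their median log2 fold change was -0.41, against 0.02 over all genes tested.

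That median rested on DKO1. DKO1 was the lowest of the 6 libraries for 31 of 31 genes and lay below every WT library for each of them, whereas 33.3% of all tested genes lay below and 33.7% above every WT library there. It held 27 of the 31 at less than 0.5 of their WT mean, compared with 4.8% of all tested genes. In DKO2 the genes ran the other way, with 20 of 31 above every WT library (38.4% of all tested genes) and 4 below every WT library (32.2%). DKO3 had 24 of 31 below every WT library (27.9% of all tested genes) and 0 above (25.9%). DKO2 and DKO3 held 0 of the 31 at less than 0.5 of the WT mean, compared with 4.12% and 2.56% of all tested genes. With DKO1 left out, 19 genes had a negative and 12 a positive log2 fold change, the median was -0.05, and 0 of 31 were called (0.174% of all genes then tested). At an unadjusted p under 0.05, 4 of the 31 were then lower and 0 higher, against 2.98% of all genes then tested in the lower direction. These were the inner root sheath keratins *Krt71*, *Krt27*, *Krt73* and *Krt28*, with log2 fold changes between -0.50 and -0.31. Without DKO2 the median was -0.80 with 31 of 31 below 0, and again 0 were called (0.158%).

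**Figure D1:**
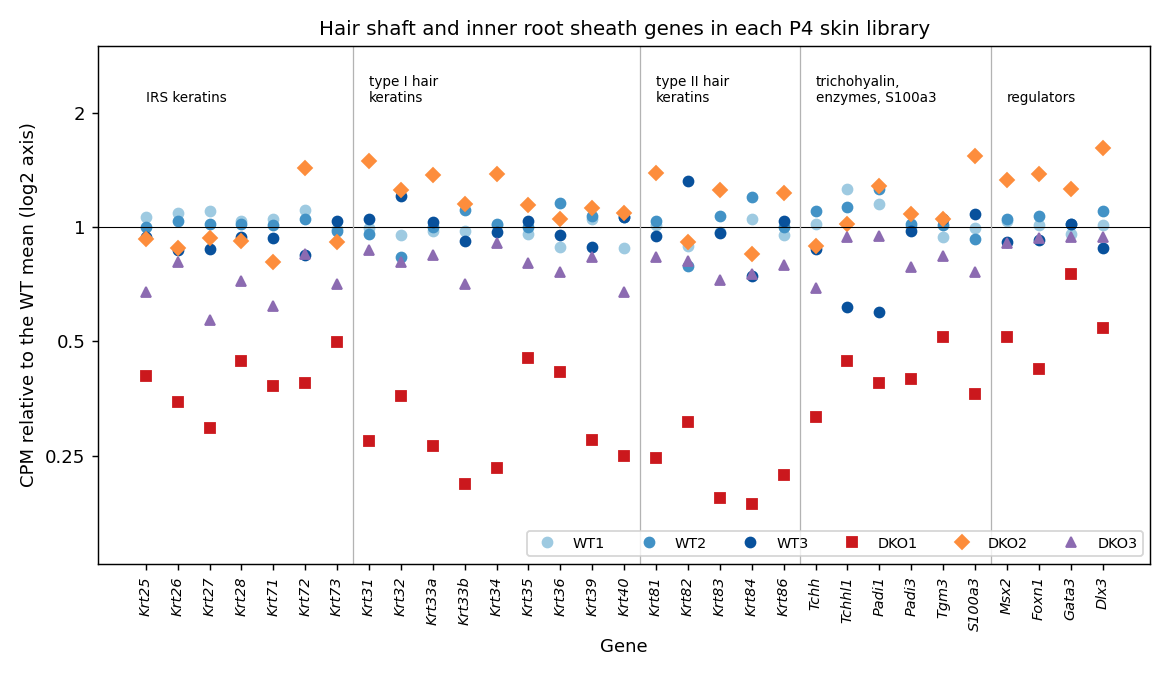
CPM of each of the 31 genes in each library divided by the mean of the 3 WT libraries (log2 axis), with genes grouped by role and 1 symbol per library. DKO1 (red squares) is lowest for 31 of 31 genes, DKO2 (orange diamonds) is above every WT library for 20, and DKO3 (purple triangles) lies between them for all.

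Summed over the 31 genes, the level was 18030, 18190 and 16140 CPM in WT1, WT2 and WT3 and 6367, 17310 and 12440 CPM in DKO1, DKO2 and DKO3. The groups overlapped, since DKO2 lay above WT3. The ratio of the DKO to the WT mean was 0.69, and 0.852 without DKO1. Per summed CPM of the basal keratins *Krt5* and *Krt14*, the 31 genes stood at 9.59, 9.17 and 8.84 in WT and at 3.85, 5.78 and 6.49 in DKO, so on this scale all 3 DKO libraries lay below all 3 WT libraries. The denominator itself was high in DKO2, where *Krt14* reached 1176 CPM against 582 to 652 CPM in WT. In bulk skin, fewer hair-forming cells and less RNA per cell cannot be told apart.

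The label of each mouse carries a number that mice of both genotypes share. Among the 2 WT and 2 DKO mice numbered 47347 (WT1, WT2, DKO2 and DKO3), the median log2 ratio of DKO to WT over the 31 genes was -0.05, with 18 lower. In the pair numbered 40972 (WT3 and DKO1) it was -1.33, with 31 lower. WT3 itself was not low, with a median of 0.95 of the WT mean. With 1 mouse per genotype, the second number gives no spread of its own.

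Inner root sheath keratins had the lowest median fold change of the 5 groups and held every gene whose WT and DKO libraries did not overlap. The 7 genes comprise the type I keratins *Krt25*, *Krt26*, *Krt27* and *Krt28*, neighbors on chromosome 11 (GRCm38, 99315516 to 99374903), and the type II keratins *Krt71*, *Krt72* and *Krt73* on chromosome 15 (101733950 to 101802343), all on the minus strand. All 7 had a negative log2 fold change, with a median of -0.56, and 0 were called. Relative to the WT mean, their median level was 0.388 in DKO1, 0.917 in DKO2 and 0.71 in DKO3. For 4 of the 7, all DKO libraries lay below all WT libraries, an order found for 5.96% of all tested genes. No other of the 31 genes had this order.

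*Krt71*, the main type II keratin of the inner root sheath, had the highest level per transcript length of the 31 genes, with a WT mean of 5281 TPM, a scaled count per transcript length. It was measured at 3969, 3818 and 3543 CPM in WT1, WT2 and WT3 and at 1438, 3048 and 2346 CPM in DKO1, DKO2 and DKO3. The group means were 3776 ± 216 CPM in WT and 2278 ± 807 CPM in DKO (SD, n = 3 each), and the groups did not overlap. The log2 fold change was -0.73 with an SE of 0.243, which had an unadjusted p of 0.0137 and an adjusted p of 0.458 by edgeR. Without DKO1 it was -0.50 (SE 0.169, edgeR adjusted p = 0.479). With no filter on low counts, edgeR's adjusted p was 0.0075 for *Krt71* and 0.048 for *Krt27*, at log2 fold changes of -0.76 and -0.77, which are short of the threshold on the fold change.

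*Krt25*, a type I partner in the same filaments, was the second most abundant per length at 3143 TPM in WT. Its levels were 2162, 2052 and 1924 CPM in WT and 829, 1909 and 1383 CPM in DKO1, DKO2 and DKO3. The groups were again apart, but DKO2 missed the lowest WT library by a small margin. The log2 fold change was -0.57 (SE 0.257, edgeR adjusted p = 0.666), and -0.33 without DKO1.

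*Krt73* was measured at 539, 531 and 565 CPM in WT and at 271, 497 and 387 CPM in DKO, a log2 fold change of -0.50 (SE 0.198, edgeR adjusted p = 0.573). *Krt28* gave 296, 292 and 268 CPM in WT and 127, 262 and 205 CPM in DKO, a log2 fold change of -0.53 (SE 0.223, edgeR adjusted p = 0.631). Both had DKO2 just under the WT libraries and DKO1 farthest from them. Of the other 3, *Krt27* (-0.74) and *Krt26* (-0.56) had overlapping groups because DKO2 reached the WT range. *Krt72*, a keratin of the inner root sheath cuticle, differed from the rest in DKO2. It was measured at 362, 341 and 276 CPM in WT and at 127, 465 and 277 CPM in DKO, so DKO2 was the highest of all 6 libraries, and without DKO1 the log2 fold change was 0.16. The other 6 keratins of the group stayed below 0 without DKO1, between -0.50 and -0.26.

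**Figure D2:**
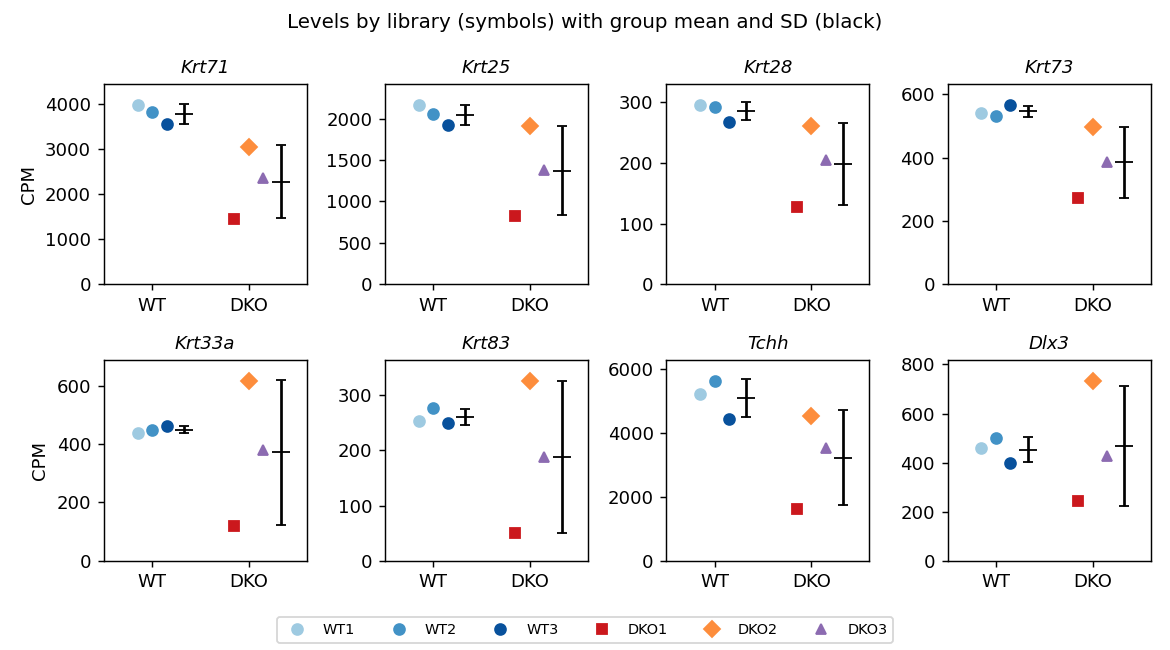
CPM of 8 genes in each library (symbols; linear axes from 0) with the mean and SD of each group of 3 libraries in black. *Krt71*, *Krt25*, *Krt28* and *Krt73* have all DKO libraries below all WT libraries, while DKO2 is the highest library for *Krt33a*, *Krt83* and *Dlx3* and lies within the WT range for *Tchh*.

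Promoters are shown for these keratins to set them beside those of the hair keratins below. RefSeq promoters (GRCm38.p6, 250 bases before to 50 after the transcript start) were matched for 25 of the 31 genes, among them all 7 inner root sheath keratins. Both strands were searched for the letters of 6 motifs, none of which contains another. AGATAA, the letters of a GATA factor motif, occurred in 4 of the 7 inner root sheath keratin promoters (*Krt25*, *Krt27*, *Krt71* and *Krt73*), in 0 of 9 hair keratin promoters and in 11.2% of all 32851 promoters. TAATTG, a homeodomain motif of the MSX and DLX kind, occurred in 4 of 7 (*Krt25*, *Krt26*, *Krt28* and *Krt73*), in 0 of 9 hair keratin promoters and in 8.0% of all promoters. Among the 6 genes of the trichohyalin and processing group, AGATAA occurred in promoters of 1 (*Tchh*) and TAATTG in those of 3 (*S100a3*, *Tchhl1* and *Tgm3*). TATAAA, the letters of the TATA box, occurred in 7 of 7, against 13.6% of all promoters, but the only match in *Krt72* was on the opposite strand 203 bases before the start, and that in *Krt27* began 15 bases before it. The promoters of *Krt71* (chr15:101743048-101743347, minus strand) and *Krt25* (chr11:99322902-99323201, minus strand) follow, 5' to 3', with capitals marking AGATAA, which starts 225 and 194 bases before the transcript start. TATAAA starts 40 and 30 bases before it.
Krt71: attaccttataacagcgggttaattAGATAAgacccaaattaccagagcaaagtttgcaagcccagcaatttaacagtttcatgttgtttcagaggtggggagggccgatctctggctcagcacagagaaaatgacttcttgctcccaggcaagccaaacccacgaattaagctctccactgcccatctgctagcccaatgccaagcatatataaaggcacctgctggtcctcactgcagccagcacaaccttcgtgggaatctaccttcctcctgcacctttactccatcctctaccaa
Krt25: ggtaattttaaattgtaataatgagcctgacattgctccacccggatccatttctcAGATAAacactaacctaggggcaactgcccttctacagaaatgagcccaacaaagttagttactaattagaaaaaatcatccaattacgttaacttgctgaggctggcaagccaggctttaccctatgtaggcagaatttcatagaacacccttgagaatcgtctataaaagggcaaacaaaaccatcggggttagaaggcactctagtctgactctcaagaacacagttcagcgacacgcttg
Such a match is a description of the letters and was not tested as a binding site.

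Hair keratins had medians that differed more between the DKO libraries than those of the inner root sheath keratins, though this did not hold for every gene. All 14 had a negative log2 fold change, with a median of -0.42, and 0 were called. The groups overlapped for all 14, as they did for 17505 of the 20168 genes tested. Without DKO1 the median was -0.04, with 9 below and 5 above 0. Type I hair keratins had a median of 0.273 of the WT mean in DKO1, 1.15 in DKO2 and 0.811 in DKO3. Type II hair keratins, their partners in the filament, had medians of 0.223, 1.23 and 0.795.

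*Krt33a*, a keratin of the hair cortex, was the most abundant hair keratin per length with a WT mean of 665 TPM. It was measured at 437, 448 and 461 CPM in WT and at 119, 614 and 379 CPM in DKO1, DKO2 and DKO3. The WT mice agreed closely and the DKO mice lay on both sides of them, with means of 448.5 ± 12.0 and 370.8 ± 248 CPM (SD, n = 3 each). Its log2 fold change was -0.27 (SE 0.433, edgeR adjusted p = 0.953), and 0.13 without DKO1.

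*Krt34* showed the same order, with 291, 294 and 281 CPM in WT and 67.0, 397 and 262 CPM in DKO. *Krt31*, also a cortex keratin, gave 181, 175 and 191 CPM in WT and 49.6, 271 and 158 CPM in DKO. *Krt33b* gave 187, 211 and 176 CPM in WT and 40.2, 220 and 136 CPM in DKO. In these 3 genes DKO2 was the highest library and DKO1 held 0.21 to 0.273 of the WT mean. *Krt35*, which is made early in the cortex and cuticle, was less far down in DKO1. It was measured at 250, 262 and 273 CPM in WT and at 118, 298 and 210 CPM in DKO, with DKO1 at 0.452 of the WT mean. *Krt32*, a cuticle keratin, gave 55.0, 48.0 and 70.0 CPM in WT and 20.7, 72.4 and 46.8 CPM in DKO. *Krt36*, *Krt39* and *Krt40* were the least abundant type I genes, at 41.7, 83.6 and 60.1 TPM in WT, with log2 fold changes of -0.43, -0.42 and -0.57.

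Among the type II hair keratins, *Krt83* was measured at 253, 277 and 250 CPM in WT and at 50.2, 325 and 189 CPM in DKO1, DKO2 and DKO3. *Krt86* gave 196, 206 and 214 CPM in WT and 45.9, 252 and 163 CPM in DKO. *Krt81* gave 173, 178 and 162 CPM in WT and 42.2, 238 and 143 CPM in DKO. DKO2 was above and DKO1 and DKO3 below the WT range for all 3. *Krt84*, known from the tongue as well as hair, had the lowest level of the 31 genes at 21.6 TPM in WT and the lowest relative level in DKO1, at 0.186 of the WT mean, which rested on 39 counts. *Krt82*, a cuticle keratin, gave 68.3, 60.5 and 102 CPM in WT and 23.6, 70.3 and 62.4 CPM in DKO.

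Values within the paralog families are less certain than their sum. Of the stretches of 100 bases in the annotated transcripts, 25% of those of *Krt81* and 24.6% of those of *Krt86* also occur in another gene, mainly each other, and for *Krt34*, *Krt31* and *Krt33a* the shares were 17.5%, 14% and 9.99%. How reads that map to more than 1 gene were counted is not given in the sources used here. For the inner root sheath keratins the share was at most 0.758%.

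The same motifs were searched in promoters of the hair keratins, and no difference between the groups was tested. CTTTGAA, the letters of a LEF1 motif, occurred in 5 of the 9 hair keratin promoters matched (*Krt31*, *Krt32*, *Krt33b*, *Krt34* and *Krt39*), in 1 of 7 inner root sheath keratin promoters (*Krt28*) and in 5.14% of all promoters. The promoter of *Tchh* held it as well. TATAAA occurred in 6 of the 9, and in *Krt84* only on the opposite strand, 206 bases before the start. The AP-2 letters GCCNNNGGC, the motif of transcription factors that KCTD15 is known to inhibit, occurred in 1 of 9 hair keratin and 1 of 7 inner root sheath keratin promoters, against 16.6% of all promoters. Over the 25 genes with a matched promoter they occurred in 5 (*Foxn1*, *Gata3*, *Krt39*, *Krt72* and *S100a3*). GACGC, the core letters of the FOXN1 motif, occurred in 1 of 9 and 1 of 7, against 27.2% of all promoters, and in 5 of the 25. The promoters of *Krt31* (chr11:100050502-100050801, minus strand) and *Krt34* (chr11:100041505-100041804, minus strand) are given 5' to 3' with CTTTGAA in capitals. It starts 244 bases before the transcript start of *Krt31* and 240 and 133 bases before that of *Krt34*.
Krt31: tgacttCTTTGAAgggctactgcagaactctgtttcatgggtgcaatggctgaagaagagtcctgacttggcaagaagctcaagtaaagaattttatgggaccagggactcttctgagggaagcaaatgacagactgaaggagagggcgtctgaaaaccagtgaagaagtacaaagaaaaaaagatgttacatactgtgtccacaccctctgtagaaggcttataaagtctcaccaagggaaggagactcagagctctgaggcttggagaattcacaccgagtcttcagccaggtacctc
Krt34: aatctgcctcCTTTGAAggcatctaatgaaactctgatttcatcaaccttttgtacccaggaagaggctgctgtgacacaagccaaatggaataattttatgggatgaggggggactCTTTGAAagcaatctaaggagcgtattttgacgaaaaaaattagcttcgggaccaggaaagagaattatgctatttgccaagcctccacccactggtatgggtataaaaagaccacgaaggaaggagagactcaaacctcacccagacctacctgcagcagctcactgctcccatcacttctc
These letters were counted only, and no binding was measured.

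The balance between the layers also differed by library and not by genotype in a single direction. The ratio of summed inner root sheath keratins to summed hair keratins was 3.87, 3.57 and 3.30 in WT1, WT2 and WT3. It was 5.14 in DKO1, above all WT libraries, and 2.5 and 2.88 in DKO2 and DKO3, below all of them. On the log2 scale, the mean level of the inner root sheath keratins relative to WT was -1.36, -0.06 and -0.51 in DKO1, DKO2 and DKO3, and that of the hair keratins was -1.90, 0.24 and -0.33. Within the mice numbered 47347, the median log2 ratio was -0.34 for the inner root sheath keratins, with 6 of 7 lower, and 0.02 for the hair keratins, with 7 of 14 lower. The difference between the groups of keratins was not tested.

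**Figure D3:**
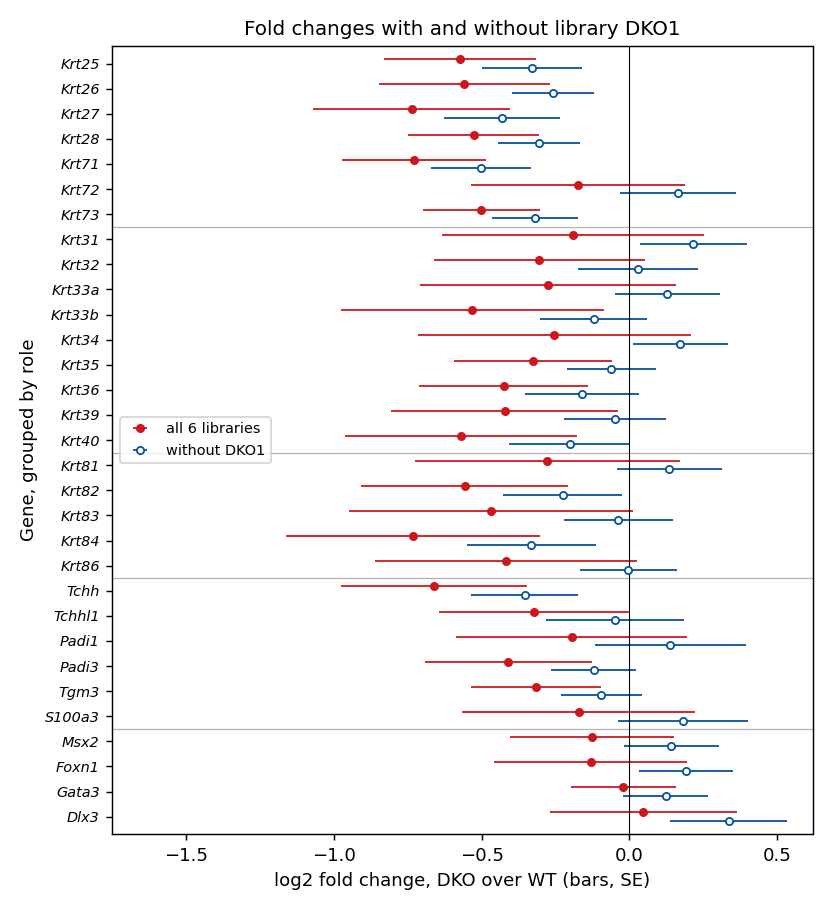
Log2 fold change of DKO over WT for each of the 31 genes, with the SE as bars, in all 6 libraries (filled red) and without DKO1 (open blue). The medians are -0.41 and -0.05, and 6 of the 7 inner root sheath keratins at the top stay below 0 without DKO1.

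Trichohyalin and the genes for its processing had a median log2 fold change of -0.32, with 6 of 6 below 0 and 0 called. *Tchh*, the gene for trichohyalin, was measured at 5204, 5613 and 4451 CPM in WT and at 1609, 4533 and 3518 CPM in DKO1, DKO2 and DKO3. DKO2 lay inside the WT range and the other DKO libraries below it. Its log2 fold change was -0.66 (SE 0.315, edgeR adjusted p = 0.706), and -0.36 without DKO1. *Tchhl1*, which encodes a trichohyalin-like protein, varied within WT, at 270, 242 and 132 CPM, and gave 95.1, 218 and 202 CPM in DKO.

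*Padi3*, a peptidylarginine deiminase of the inner root sheath and hair, was measured at 260, 265 and 252 CPM in WT and at 103, 279 and 203 CPM in DKO. *Padi1*, a deiminase made in epidermis and follicle, gave 112, 122 and 58.0 CPM in WT and 37.7, 124.8 and 91.8 CPM in DKO, and 32% of its exonic bases overlap a gene on the other strand. *Tgm3*, a transglutaminase of the inner root sheath and shaft, was among the genes least low in DKO1. It gave 126, 134 and 140 CPM in WT and 68.6, 140 and 112 CPM in DKO. *S100a3*, a calcium-binding protein of the hair cuticle and a substrate of deiminases, was measured at 295, 277 and 320 CPM in WT and at 108, 457 and 226 CPM in DKO. DKO2 was the highest library for *Padi1*, *Padi3*, *Tgm3* and *S100a3*, though narrowly in all but *S100a3*.

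Transcription factors of hair lineages had the median nearest to 0 of the 5 groups. Their median log2 fold change was -0.07, with 3 of 4 below 0 and 0 called, and without DKO1 it was 0.17 with 4 of 4 above 0. *Gata3* gave 308, 326 and 328 CPM in WT and 242, 404 and 302 CPM in DKO, and at 0.753 of the WT mean it was the least low of the 31 genes in DKO1. *Dlx3* was measured at 458, 499 and 399 CPM in WT and at 245, 731 and 426 CPM in DKO, with the highest relative level of the 31 in DKO2, 1.62. Its log2 fold change of 0.05 turned to -0.02 on total counts. *Foxn1* gave 146, 155 and 135 CPM in WT and 61.7, 200.4 and 136 CPM in DKO. *Msx2* gave 130, 131 and 114 CPM in WT and 63.9, 166 and 113 CPM in DKO. Each of the 4 was highest in DKO2 and lowest in DKO1. Median levels relative to WT in DKO1 were 0.527 for the regulators, 0.392 for trichohyalin and its processing genes, 0.388 for inner root sheath keratins, 0.273 for type I and 0.223 for type II hair keratins.

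Other follicle genes were read from lists of 37 genes in all. Of these 0 passed the test by edgeR or DESeq2, 22 had a log2 fold change below 0 and 15 above, and the median was -0.07. At an unadjusted p under 0.05 by edgeR, 1 was lower and 1 higher, against 2.54% and 4.96% of all tested genes. Signals of the follicle, such as Wnt and BMP ligands, had 0 of 9 called and stood at medians of 0.881, 1.13 and 1.02 of the WT mean in DKO1, DKO2 and DKO3. The 3 with the smallest p-values were *Bmp2*, *Wnt10a* and *Wnt10b*, with log2 fold changes of 0.27, 0.28 and -0.18 (edgeR adjusted p = 0.899, 0.905 and 0.908). *Shh*, made by matrix cells, was measured at 19.5, 18.9 and 18.9 CPM in WT and at 24.1, 20.2 and 19.2 CPM in DKO, so it was not low in DKO1.

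Other follicle transcription factors had 0 of 13 called and medians of 0.691, 1.18 and 1.03 of the WT mean. *Hr*, *Hoxc13*, a regulator of hair keratin genes, and *Lef1*, the Wnt effector of the matrix and precortex, had log2 fold changes of 0.31, -0.21 and -0.14 (edgeR adjusted p = 0.898, 0.924 and 0.939). *Hoxc13* gave 119, 116 and 129 CPM in WT and 73.5, 132 and 110 CPM in DKO. *Lef1* gave 192, 198 and 201 CPM in WT and 138, 221 and 176 CPM in DKO. Both had the order of the hair keratins, with a smaller difference between DKO1 and the others.

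Structural genes beyond the 31 had 0 of 15 called, 12 below 0, and medians of 0.45, 1.24 and 0.925 of the WT mean. *Krt74*, another type II keratin of the inner root sheath, had the same order as *Krt71*. It gave 11.2, 11.2 and 16.1 CPM in WT and 4.24, 9.96 and 8.46 CPM in DKO, all below WT (log2 fold change -0.76, edgeR adjusted p = 0.569). *Rptn*, a relative of trichohyalin made in epidermis, ran opposite, at 16.5, 11.7 and 6.71 CPM in WT and 70.5, 22.4 and 19.3 CPM in DKO, with DKO1 highest (log2 fold change 1.69, edgeR adjusted p = 0.354). It was called by edgeR without a filter on low counts, as were 0.624% of all genes then tested. *Crisp1* had a log2 fold change of -0.95 (edgeR adjusted p = 0.878) and was at 0.346 CPM in DKO1. *Krt75*, of the companion layer, was the most abundant of this list, and gave 455, 462 and 377 CPM in WT and 160, 535 and 322 CPM in DKO.

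Keratin-associated protein genes, taken as a sum, had the order of the hair keratins. Of 57 genes 53 were tested, 0 were called by edgeR or DESeq2 and 46 had a log2 fold change below 0, with a median of -0.30. By edgeR 3 were lower at an unadjusted p under 0.05, against 2.54% of all tested genes. The summed level of the family was 6400, 6779 and 6419 CPM in WT and 1758, 8804 and 5887 CPM in DKO1, DKO2 and DKO3. DKO2 was thus above and the other 2 below WT. *Krtap3-1*, the most abundant per length, gave 582, 642 and 570 CPM in WT and 159, 903 and 572 CPM in DKO. In 4 genes (*Krtap5-2*, *Krtap5-3*, *Krtap8-1* and *Krtap28-13*), all DKO libraries lay below all WT libraries, against 5.96% of all tested genes. *Krtap5-2* gave 17.1, 14.7 and 69.8 CPM in WT and 9.53, 10.5 and 11.4 CPM in DKO, and *Krtap5-3* gave 11.5, 11.5 and 30.8 CPM in WT and 7.02, 9.59 and 6.95 CPM in DKO. These 2 did not have the order of the sum, were highest in WT3, and were called lower by edgeR without a filter on low counts, against 0.624% of all genes then tested. Without DKO1, 31 of 54 were above 0 and the median was 0.09. These genes are short and alike, so reads may be split among them.

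**Figure D4:**
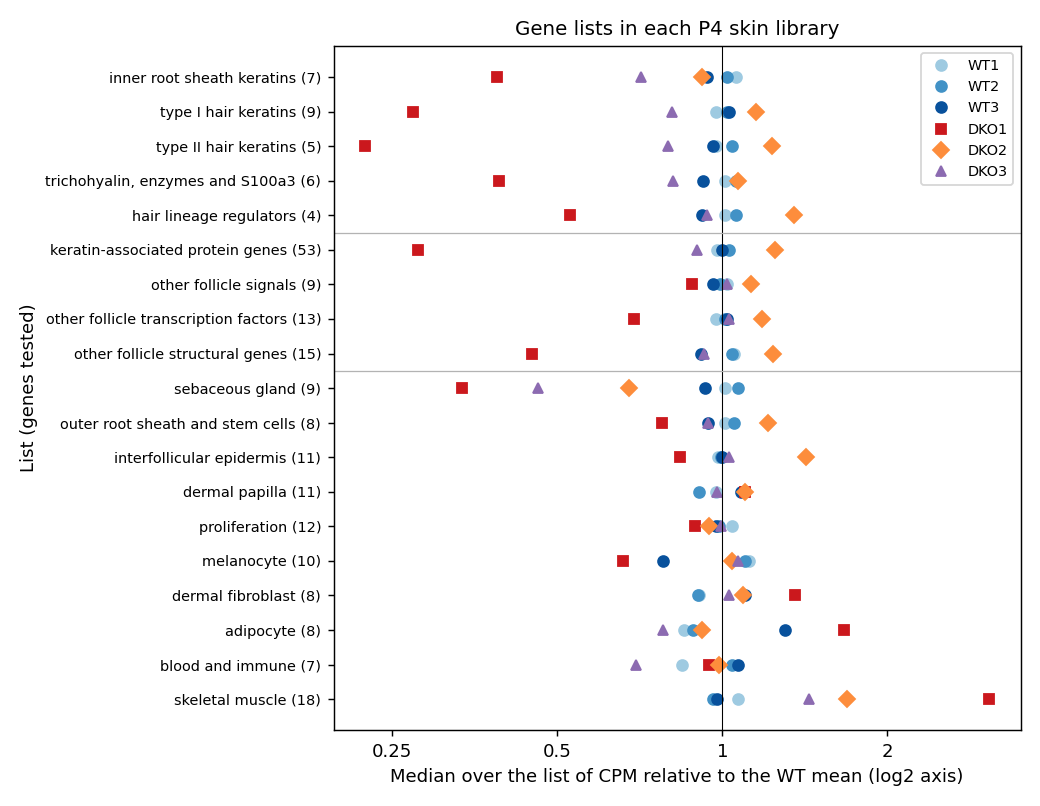
Median over each gene list of CPM relative to the WT mean in each library (log2 axis), for the 31 genes by role (top), other follicle genes (middle) and markers of skin cell types (bottom), with the number of genes tested in parentheses. DKO1 is low for hair genes (0.223 to 0.527) and high for skeletal muscle (3.07), and all 3 DKO libraries are low for the sebaceous gland (0.335, 0.676 and 0.461).

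Markers of some other cells in whole skin, taken as sums, differed from WT in every DKO library. Skeletal muscle genes had summed levels of 7403, 6445 and 6765 CPM in WT and of 22140, 10470 and 10480 CPM in DKO1, DKO2 and DKO3. All 18 had a positive log2 fold change, with a median of 1.06, and for 14 all DKO libraries lay above all WT libraries, against 7.24% of all tested genes. By edgeR 0 were called, with 15 of 18 higher at an unadjusted p under 0.05, against 4.96% of all tested genes. By DESeq2 10 were called higher, against 0.827% of all genes called in either direction. By edgeR without a filter on low counts the same 10 genes were called (0.624% of all genes then tested), and with the label number as a block *Acta1* was called (adjusted p = 0.0396, against 0.174% of all genes). Without DKO1 the median was 0.56, with 17 of 18 above 0 and 0 called by edgeR, although *Des*, *Acta1* and *Myh8* had an adjusted p under 0.05. *Acta1*, the most abundant per length, gave 680, 594 and 692 CPM in WT and 2015, 1199 and 1126 CPM in DKO. The muscle genes were thus highest in DKO1, the library where the hair genes were lowest. With library sizes computed without the muscle genes, the median of the 31 genes was -0.43. That setting changes the scaling only and cannot show how much muscle a sample held. The part of muscle in the result was not tested.

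Sebaceous gland genes, also appendage products, had a sum below every WT library in all DKO libraries, although 3 of the 9 genes overlapped between the groups. Their sum was 918, 960 and 795 CPM in WT and 358, 788 and 541 CPM in DKO, the median log2 fold change was -1.06, and for 6 of 9 all DKO libraries lay below all WT libraries, against 5.96% of all tested genes. By edgeR 0 were called, with 7 of 9 lower at an unadjusted p under 0.05, against 2.54% of all tested genes. By DESeq2 5 were called lower (*Far2*, *Scd3*, *Elovl3*, *Dgat2l6* and *Awat1*), against 0.827% of all genes called in either direction. By edgeR the same 5 were called without a filter on low counts and without DKO2 (0.624% and 0.158% of all genes then tested), and *Far2* and *Scd3* were called with the label number as a block (0.174%). *Krt79*, the most abundant, gave 282, 276 and 200 CPM in WT and 176, 421 and 234 CPM in DKO. DKO1 was thus below, DKO2 above and DKO3 within the WT range. *Far2*, an enzyme of wax synthesis picked here after its values were seen, gave 209, 221 and 193 CPM in WT and 35.7, 85.0 and 67.4 CPM in DKO (log2 fold change -1.72, edgeR adjusted p = 0.068). Without DKO1 the median was -0.85 and 2 of 9 were called by edgeR, against 0.174% of all genes then tested. The low median of these genes thus did not rest on that library.

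Interfollicular epidermis genes summed to 8728, 8809 and 8928 CPM in WT and 10730, 13280 and 10340 CPM in DKO, with 0 of 11 tested genes called by edgeR or DESeq2. *Krt1* and *Krt77* passed the adjusted p by DESeq2 (0.00087 and 0.0326), and by edgeR without a filter on low counts, and missed the fold threshold. Of the 11, 4 had a log2 fold change below 0 and 7 above. In 2 all DKO libraries lay below and in 3 above all WT libraries, against 5.96% and 7.24% of all tested genes. *Krt10*, the most abundant per length and a keratin of suprabasal cells, gave 1852, 1924 and 2017 CPM in WT and 2835, 2762 and 2455 CPM in DKO. Its partner *Krt1*, likewise chosen after its values were seen, gave 1697, 1693 and 1932 CPM in WT and 3038, 3571 and 2599 CPM in DKO (log2 fold change 0.79, edgeR adjusted p = 0.202). Both were above WT in every DKO library. *Krt77*, a further suprabasal keratin, ran opposite, at 91.8, 91.9 and 124 CPM in WT and 43.6, 75.1 and 59.4 CPM in DKO (log2 fold change -0.79, edgeR adjusted p = 0.303). *Krt2* was not tested and had no counts in DKO3.

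The remaining lists had medians between -0.21 and 0.19 on the log2 scale. Outer root sheath and stem cell genes summed to 1426, 1467 and 1336 CPM in WT and 1044, 1920 and 1245 CPM in DKO, with *Krt17* the most abundant, at 392 CPM in DKO1 and 1084 CPM in DKO2. Dermal papilla genes, of the mesenchyme that the bulb surrounds, summed to 286, 262 and 305 CPM in WT and 318, 316 and 320 CPM in DKO, led by *Enpp2*, and so were not low in DKO1. Proliferation genes summed to 1816, 1697 and 1707 CPM in WT and 1500, 1557 and 1713 CPM in DKO, with *Mki67* at 740 CPM in DKO1 and 815 and 889 CPM in the others. Melanocyte genes summed to 1159, 1146 and 800.4 CPM in WT and 718, 1159 and 1121 CPM in DKO, so WT3 and DKO1, the mice numbered 40972, were both low, and *Dct* led with 181 and 174 CPM there. Adipocyte genes were high in the same 2 mice, with sums of 1434, 1437 and 2166 CPM in WT and 2904, 1433 and 1305 CPM in DKO, and *Car3* led at 819 and 1419 CPM. Dermal fibroblast genes, led by *Col1a1*, summed to 15310, 17210 and 18590 CPM in WT and 20620, 25460 and 17440 CPM in DKO. Blood and immune genes, led by *Hbb-bs*, summed to 149, 179 and 179 CPM in WT and 173, 187 and 96.2 CPM in DKO. By edgeR 0 genes of these 7 lists were called, and by DESeq2 *Retn*, of the adipocyte list, was called higher, at 4.57, 5.09 and 5.24 CPM in WT and 22.2, 9.52 and 8.46 CPM in DKO. It was also called higher by edgeR without a filter on low counts. Of all genes then tested, 0.827% were called by DESeq2 and 0.624% by edgeR without the filter, in either direction. The part of these lists in the levels of the hair genes was not tested.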

How the data were processed

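Total RNA of whole skin was depleted of rRNA, and libraries were made with NEBNext Ultra II and sequenced as 150-base pairs on an Illumina NovaSeq. Per the labels and the submitters' processing notes, the authors used Trimmomatic 0.36, STAR 2.5.2b and featureCounts of Subread 1.5.2 on GRCm38. The deposited values are raw read counts per gene, not normalized, in 1 file per mouse. Strand and multi-mapping settings are not given in the sources used here. Symbols were found for 48970 of 49315 identifiers.

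Samples were grouped by the genotype and age in their labels. Counts of the 6 P4 libraries were tested in R 4.3.3 with edgeR 4.0.16 (filterByExpr, TMM, quasi-likelihood F test, p-values adjusted by Benjamini-Hochberg over 20168 genes). A call needed an adjusted p under 0.05 together with a log2 fold change beyond 1 in either direction. DESeq2 1.42.0 was an alternative, beside other scalings, filters, a block for the number in the labels and leaving out each library. Both tools were tested on simulated data. TPM, used to compare genes, were computed from the counts and the exonic lengths in the files. With 3 mice per group and 1 library each, p-values measure the spread between mice. Promoters were read from RefSeq, and a gene with several promoters was counted once.

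The members and the gene lists were chosen with earlier results of these data known. Named were all members, of each list of other follicle genes the 3 with the lowest p, *Kctd1*, *Kctd15*, and the most abundant gene of each marker list and of the keratin-associated genes. *Shh*, *Krt75*, *Krt1*, *Krt5*, *Krt14*, *Krt2*, *Krt77*, *Retn*, *Des*, *Myh8*, *Krtap5-2*, *Krtap5-3*, *Krtap8-1*, *Krtap28-13*, *Far2* and the other sebaceous genes beside *Krt79* fall outside this rule and were chosen after their values were seen. One of the 32 listed genes is not analysed here.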

Additional observations from a re-analysis of the deposited data

How the results depend on the processing

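In every alternative, 0 of the 31 genes were called, although *Krt71* and *Krt27* had adjusted p-values of 0.0075 and 0.048 without a filter on low counts. The median log2 fold change over them ranged from -0.80 (without DKO2) to -0.05 (without DKO1) and was -0.07 in the mice numbered 47347, an alternative chosen after seeing the data. Under other scalings, filters, DESeq2 and the block it lay between -0.53 and -0.42. The summed level ranged from 0.539 to 0.852 of WT when 1 library was left out. Genes called among all tested numbered 14 (6 lower, 8 higher), but 152 by DESeq2, 210 without a filter on low counts, 22 on total counts (12 lower, 10 higher), 21 with library sizes free of muscle genes (12 lower, 9 higher), 9 in the mice numbered 47347, and 2 to 36 when 1 library was left out (2 without WT2 or WT3, 3 without WT1, 4 without DKO3, 33 without DKO2, 36 without DKO1).

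With the shared label number as a replicate block, 35 genes were called (20 lower, 15 higher), *Dlx3* turned to -0.050, and 0 of the 31 were called. Deviations from the group means correlated at -0.03 to 0.277 in pairs with the same number and at -0.20 to -0.12 in pairs with different numbers. Every pair with the same number was thus above every other pair. Deviations cancel out within each group, however, so the pairs are tied to each other and their order is partly set by this centring. Whether the number marks a shared origin was not tested. Of the 5 pairs with the same number, 2 were below 0.1, which decides nothing because the pairs are tied. The block was kept as an alternative because the labels do not say what the number marks. *Dlx3* was -0.017 on total counts. In the mice numbered 47347, log2 fold changes turned positive for *Krt72* (0.054), *Krt31* (0.25), *Krt32* (0.19), *Krt33a* (0.14), *Krt34* (0.15), *Krt81* (0.10), *Krt82* (0.025), *Krt86* (0.023), *S100a3* (0.23), *Msx2* (0.078), *Foxn1* (0.14), *Gata3* (0.14), *Hoxc13* (0.022) and *Lef1* (0.0067).

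Leaving out 1 library turned the sign of these values, which ranged from -0.69 to 0.16 for *Krt72*, -0.80 to 0.22 for *Krt31*, -0.76 to 0.028 for *Krt32*, -0.84 to 0.13 for *Krt33a*, -0.80 to 0.17 for *Krt34*, -0.88 to 0.14 for *Krt81*, -0.58 to 0.14 for *Padi1*, -0.83 to 0.18 for *S100a3*, -0.49 to 0.14 for *Msx2*, -0.55 to 0.19 for *Foxn1*, -0.23 to 0.12 for *Gata3*, -0.43 to 0.34 for *Dlx3*, -0.013 to 0.39 for *Bmp2* and -0.014 to 0.51 for *Hr*. Up to *Foxn1* only leaving out DKO1 turned the sign, *Gata3* turned without DKO1 or DKO3, *Dlx3* without WT3 or DKO2, and *Bmp2* and *Hr* without DKO2. Of the other lists, DESeq2 and edgeR without a filter both called 10 muscle genes, 5 sebaceous genes and *Retn*, and edgeR without a filter also called *Rptn*, *Krtap5-2* and *Krtap5-3*. The block called *Acta1*, *Far2* and *Scd3*. *Far2* and *Scd3* were also called without DKO1, and these 2 with 3 further sebaceous genes without DKO2. *Far2* alone was called on total counts, without muscle genes in the library sizes and in the mice numbered 47347. The numbers of all genes called under each of these settings are given above. Causes were not tested.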
